A study of Mus musculus with 12 samples.

Results

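Expression of 10 genes of the Notch pathway was followed in glioma-model cells kept in normoxia, in hypoxia, and in hypoxia with either of 2 inhibitors. The genes were the ligands Dll1, Dll3 and Jag1, the receptors Notch1, Notch2 and Notch3, and the target genes of the HES and HEY families Hes1, Hes5, Hes6 and Hey1. They were found by gene symbol among 19505 genes of the array, each by 1 transcript cluster (the set of probes that reports 1 gene), so no choice between clusters was needed. All 12 arrays held RNA of mouse glioma-model cells named S100β-v-erbB/p53-/- TSC1, of strain FVB-NJ. In that model the S100β promoter drives v-erbB, an active relative of the epidermal growth factor receptor, and the p53-/- background was shared by every group, controls included. The 4 groups of 3 arrays were normoxia with the solvent DMSO, hypoxia with DMSO, hypoxia with BFA (brefeldin A, a blocker of transport from the endoplasmic reticulum to the Golgi) and hypoxia with EHT-1864 (an inhibitor of Rac GTPases, here EHT), each for 16 h. EHT was given at 1 µM, while the labels give BFA both as 1 µM and as 0.1 µM, and this was not settled. The labels speak of 3 independent cultures without saying whether arrays with equal numbers share one. The p-values measure the spread between these arrays, which may be partly technical.

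Notch receptors are cleaved after a ligand on a neighbouring cell binds them, and the freed intracellular part joins the DNA-binding protein RBPJ and Mastermind proteins to switch on target genes. HES and HEY proteins are repressors made from such target genes, and in the neural lineage they hold back proneural factors, which bind E-box motifs together with E proteins. Dll1 and Jag1 activate receptors on neighbouring cells, whereas Dll3 is held mainly inside the cell and acts against Notch signalling in the cell that makes it. Hes6 is the unusual member of its family, since it opposes Hes1 and is itself switched on by proneural factors.

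The promoters of the 4 genes that fell with both compounds (Dll3, Dll1, Jag1 and Hes6) are shown first, beside that of Hes5, which passed no test. The RefSeq table of build GRCm38.p6 held 10 promoters for 8 of the 10 genes (Dll1 and Hes6 with 2 each), and Hes1 and Hey1 had none there. Each line gives the 250 bases before an annotated transcription start, 5′ to 3′ on the gene's strand. In the Hes5 line, capitals mark the RBPJ motif GTGGGAA on either strand, and in the other lines they mark the E-box CANNTG, in which N is any base. Of the 2 promoters of Dll1 and of Hes6, the upstream one is shown, which in each case holds more E-boxes than the other.
Hes5, chr4:154960673-154960922, plus strand: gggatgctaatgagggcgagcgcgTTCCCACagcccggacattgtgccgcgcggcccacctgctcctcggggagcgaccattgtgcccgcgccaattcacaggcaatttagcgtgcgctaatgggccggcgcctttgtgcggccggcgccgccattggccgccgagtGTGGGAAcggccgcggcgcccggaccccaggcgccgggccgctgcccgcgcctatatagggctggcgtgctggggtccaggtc
Dll3, chr7:28301786-28302035, minus strand: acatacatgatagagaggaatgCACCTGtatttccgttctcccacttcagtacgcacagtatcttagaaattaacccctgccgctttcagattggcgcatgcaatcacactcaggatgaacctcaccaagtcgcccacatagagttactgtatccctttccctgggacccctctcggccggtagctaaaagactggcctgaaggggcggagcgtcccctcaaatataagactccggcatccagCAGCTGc
Dll1, chr17:15376933-15377182, minus strand: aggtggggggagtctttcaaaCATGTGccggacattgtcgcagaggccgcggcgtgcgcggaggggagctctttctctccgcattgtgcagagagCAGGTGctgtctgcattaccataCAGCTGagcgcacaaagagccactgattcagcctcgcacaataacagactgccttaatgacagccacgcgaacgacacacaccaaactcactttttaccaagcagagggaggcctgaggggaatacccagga
Jag1, chr2:137116521-137116770, minus strand: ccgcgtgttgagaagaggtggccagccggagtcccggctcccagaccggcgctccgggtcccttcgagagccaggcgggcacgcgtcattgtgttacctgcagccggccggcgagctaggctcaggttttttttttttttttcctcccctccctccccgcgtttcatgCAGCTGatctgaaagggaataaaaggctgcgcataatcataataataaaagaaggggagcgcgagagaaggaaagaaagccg
Hes6, chr1:91414039-91414288, minus strand: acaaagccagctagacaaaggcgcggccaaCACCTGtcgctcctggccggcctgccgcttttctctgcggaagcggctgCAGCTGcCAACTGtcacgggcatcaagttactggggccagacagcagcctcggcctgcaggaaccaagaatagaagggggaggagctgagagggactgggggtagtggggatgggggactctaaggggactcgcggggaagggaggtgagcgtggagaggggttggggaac
The Hes5 promoter held GTGGGAA at 2 places, bases -83 to -77 on the printed strand and bases -226 to -220 on the opposite strand, counted from the start with -1 as the last base before it. Of 32841 promoters of the same length, 5.41% held this motif at least once and 0.161% at least 2 times. The shorter core TGGGAA, which lies inside it, occurred in 21.6% of all promoters and, among the promoters of these genes, in that of Hes5 alone. E-boxes stood at 2 places in the Dll3 promoter, 3 in the printed promoters of Dll1 and Hes6 and 1 in their other promoters. The Jag1 promoter held 1, and that of Hes5 also held 1, at bases -194 to -189, which the capitals do not mark. In all, 7 of the 10 promoters held an E-box, close to the 66.2% of all promoters that did, and 31.8% of all held at least 2. The promoters of Notch1, Notch2 and Notch3 held 0. The core of the hypoxia response element, ACGTG, was found in 1 of the 10 promoters, that of Notch3, against 16.6% of all promoters. The HES-binding motifs CACNAG and CACGNG, which can overlap each other, occurred in 4 and 6 of the 10 promoters, against 36.7% and 23.5% of all. These are matches of letters in a short window, and binding was not measured.

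Signals are log2 values, on which a difference of 1 is a doubling. The arrays differed by group in ways that touch every comparison with BFA or EHT. Array medians lay between 5.35 and 5.46, but values spread less with the compounds: the SD over transcript clusters was on average 2.51 for hypoxia DMSO, 2.28 for BFA and 2.41 for EHT arrays. A floor was set on each array at the 95th percentile of its negative control probes, and its mean was 5.61 in both DMSO groups, 6.49 for BFA and 6.01 for EHT. Hybridization controls, which are added to each sample from outside, had a mean of 9.76 ± 0.06 on the hypoxia DMSO arrays (SD, n = 3), 10.93 ± 0.12 for BFA and 10.25 ± 0.07 for EHT. Of 8 markers of oligodendrocyte progenitors and glioma cells 7 were measured, all above the floor on every DMSO array, and their summed linear signal was 11361 to 11492 on hypoxia DMSO arrays, 1933 to 2208 on BFA arrays and 4548 to 4970 on EHT arrays. All 5 endothelial and all 5 microglial markers were below the floor on every array, and so were 4 of 5 fibroblast and pericyte markers. Of 5 neuronal markers 3 were above it on all DMSO arrays (Syt1, Tubb3 and Map2) and Rbfox3 and Snap25 were below it everywhere. Their summed signal was 859 to 980 on hypoxia DMSO arrays, 378 to 403 for BFA and 688 to 742 for EHT. Of 5 astrocytic markers Slc1a3 and S100b were above it on all DMSO arrays, and Gfap, Aqp4 and Aldh1l1 were below it everywhere, with sums of 1123 to 1206, 366 to 464 and 833 to 947 in the same order. In RNA of whole cultures, fewer cells of a type and less RNA per cell cannot be told apart. The part of these shifts in the differences below was not tested.

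**Figure D1:**
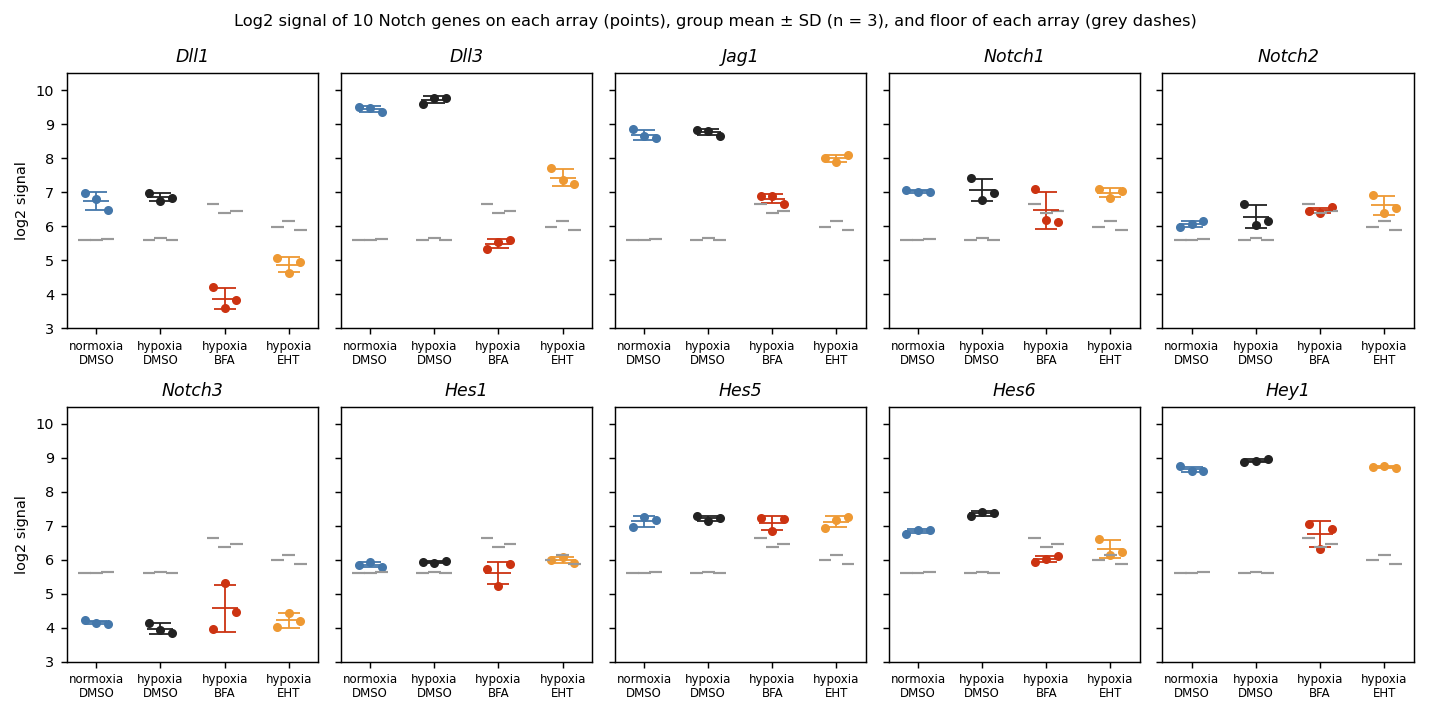
Log2 signal of the 10 genes on each of the 12 arrays by group (points), with group mean and SD (n = 3) and the floor of each array (grey dashes). Dll3 lay between 9.35 and 9.78 on the 6 DMSO arrays, between 5.34 and 5.60 with BFA and between 7.23 and 7.71 with EHT, whereas Hes5 stayed between 6.85 and 7.27 on all 12 arrays.

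The first question was whether hypoxia alone moved these genes. None of the 10 passed the threshold (limma adjusted p under 0.05 over all transcript clusters), and 1 of them, Hes6, had an unadjusted p under 0.05. Over all 22206 transcript clusters, 2.67% passed in this comparison, 2.11% as higher and 0.563% as lower, and 4.83% did among those above the floor on at least 3 arrays. Hes6 read 6.77, 6.88 and 6.86 on the normoxia arrays and 7.28, 7.41 and 7.38 on the hypoxia DMSO arrays. The groups did not overlap, and the difference was 0.52 ± 0.13 (± is the standard error of the fit after a difference and the SD after a mean, with n = 3 arrays a group throughout; limma adjusted p = 0.0617). Hes6 passed under 8 of 21 alternative settings, with adjusted p between 0.0095 and 0.189. Dll3 (0.27 ± 0.14) and Hey1 (0.25 ± 0.16) also had groups that did not overlap, but 30.2% of all transcript clusters had that too. Differences of the other genes lay between -0.18 for Notch3 and 0.22 for Notch2. The median over the 10 genes was 0.10, beside -0.03 over all transcript clusters. Hypoxia was visible in the cells, since the summed signal of Vegfa, Car9, Slc2a1 and Pdk1 ran from 730 to 862 in normoxia and from 5030 to 5645 in hypoxia with DMSO. The same sum ran from 3534 to 3704 with BFA and from 1837 to 2373 with EHT.

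In hypoxia, BFA lowered all 3 ligands, Hes6, Hey1 and, less firmly, Notch1. With EHT the 3 ligands and Hes6 were lower too, while Hey1 did not pass the test. The fall was smaller with EHT than with BFA for Dll3 and Jag1. For Dll1 the compounds differed only below the floor, and for Hes6 their difference did not pass. Of the 10 genes, 6 fell and 0 rose with BFA, in a comparison in which 50.7% of all transcript clusters passed, 26.1% as higher and 24.6% as lower. With EHT 4 fell and 0 rose, against 30.5% of all transcript clusters, 13% as higher and 17.4% as lower. That split of all transcript clusters with EHT, 2893 higher and 3874 lower, depended on the scaling: it was 2978 and 3005 after a further quantile normalization and 3705 and 3430 after median subtraction. The share that passed was thus near the background, which was 62.3% with BFA and 45.9% with EHT among transcript clusters above the floor on at least 3 arrays. The median difference of the 10 genes was -0.97 with BFA, beside 0.11 over all transcript clusters, and -0.14 with EHT, beside 0.06. Groups did not overlap for 6 genes with BFA and 5 with EHT, against 55.9% and 48.5% of all transcript clusters. Both comparisons use the same hypoxia DMSO arrays.

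Among the ligands, Dll3 fell with both compounds. Its signal (transcript cluster TC0700002692.mm.2) was 9.50, 9.49 and 9.35 under normoxia, 9.60, 9.78 and 9.77 for hypoxia DMSO, 5.34, 5.53 and 5.60 for BFA and 7.71, 7.35 and 7.23 for EHT. The 3 hypoxic groups did not overlap, with EHT between DMSO and BFA, and every BFA array was below its floor. Dll3 fell by 4.23 on the log2 scale with BFA (± 0.14, limma adjusted p = 1.06e-09). Because the BFA arrays give only a bound, this is stated as at least 9.37-fold lower. With EHT the signal stayed above the floor and fell by 2.29 (± 0.14, adjusted p = 2.90e-07), or 4.89-fold. The gap between the compounds was itself past the threshold (-1.94 ± 0.14, adjusted p = 3.57e-07), at least 1.91-fold lower with BFA.

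Dll1, the ligand that activates receptors on adjacent cells, was above the floor in both DMSO groups and below it on all 6 arrays of the compounds. Its values (TC1700001497.mm.2) were 6.97, 6.79 and 6.46 on the normoxia arrays, 6.97, 6.74 and 6.83 on the hypoxia DMSO arrays, 4.20, 3.59 and 3.82 on the BFA arrays and 5.05, 4.61 and 4.93 on the EHT arrays. Both compound groups lay below both DMSO groups without overlap, and the DMSO groups overlapped each other. Dll1 fell by 2.98 ± 0.18 with BFA (adjusted p = 5.54e-08, at least 1.28-fold) and fell by 1.98 ± 0.18 with EHT (adjusted p = 8.58e-06, at least 1.79-fold). The bounds are small because the floor of the compound arrays was close to the DMSO signal. Dll1 was lower with BFA than with EHT (-0.996 ± 0.18, adjusted p = 7.30e-04), and no fold is given because both groups were below the floor.

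Jag1, the ligand of the Serrate type, could be read above the floor on all 12 arrays. It measured 8.86, 8.64 and 8.58 under normoxia, 8.84, 8.81 and 8.65 for hypoxia DMSO, 6.88, 6.90 and 6.65 for BFA and 8.01, 7.89 and 8.09 for EHT (TC0200004713.mm.2). Here too the order was DMSO, EHT, BFA, with no overlap among the 3 hypoxic groups. Jag1 fell by 1.96 ± 0.13 with BFA (3.90-fold, adjusted p = 8.67e-08) and by 0.77 ± 0.13 with EHT (1.71-fold, adjusted p = 6.00e-04). Between the compounds it was 2.28-fold lower with BFA (-1.19 ± 0.13, adjusted p = 8.33e-06). These calls for Dll3, Dll1 and Jag1 held under all 21 alternatives.

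Of the 3 receptors, 1 passed with BFA and 0 with EHT. Notch1, the receptor best known from neural progenitors, read 7.06, 7.01 and 6.99 on the normoxia arrays, 7.41, 6.78 and 6.96 on the hypoxia DMSO arrays, 7.10, 6.18 and 6.11 on the BFA arrays and 7.08, 6.84 and 7.04 on the EHT arrays. The BFA arrays were split, with array 1 inside the range of the DMSO arrays and above its floor, and arrays 2 and 3 below that range and below their floor. The difference between BFA and DMSO was -0.59 ± 0.23 (limma adjusted p = 0.0489), a call that passed under only 8 of 21 alternatives. It was -0.25 (adjusted p = 0.456) after a further quantile normalization, and -0.52 (adjusted p = 0.0713) after subtraction of array medians. Of the 12 fits that each left out 1 array, it passed only in those without hypoxia DMSO array 2 and without BFA array 1, where it was largest at -0.91. With EHT the Notch1 difference was -0.07 ± 0.23 (95% interval -0.57 to 0.44). Between BFA and EHT it was -0.52 ± 0.23 (adjusted p = 0.0966), which passed under 4 of 21 alternatives, among them the fit without BFA array 1 (-0.84, adjusted p = 0.0021).

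Notch2, another receptor of glial and neural cells, read 5.97, 6.07 and 6.15 under normoxia, 6.66, 6.04 and 6.14 for hypoxia DMSO, 6.44, 6.39 and 6.56 for BFA and 6.93, 6.38 and 6.55 for EHT. BFA array 1 lay below its floor of 6.65, and BFA arrays 2 and 3 were little above theirs (6.37 and 6.45). Groups overlapped in hypoxia, because array 1 of the DMSO group was higher than the other 2. The differences were 0.18 ± 0.17 with BFA and 0.34 ± 0.17 with EHT, and neither passed (adjusted p = 0.408 and 0.165). After a further quantile normalization both did (0.49, adjusted p = 0.0259, and 0.54, adjusted p = 0.0256), and EHT also without hypoxia DMSO array 1 (0.52, adjusted p = 0.0370). Notch3, a receptor of mural cells and some progenitors, was below the floor on all 12 arrays, at 3.84 to 4.21 with DMSO, 3.94 to 5.31 with BFA and 4.01 to 4.42 with EHT. No fold is given for it. Its difference between BFA and DMSO (0.60 ± 0.26, adjusted p = 0.066) passed without BFA array 1 (0.92, adjusted p = 0.0049).

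The 4 HES and HEY genes differed in their response: Hes6 fell with both compounds, Hey1 with BFA, and Hes1 and Hes5 passed in neither case. Hes6 (TC0100002800.mm.2) was at 5.92, 6.03 and 6.09 with BFA, all below the floor, and at 6.61, 6.13 and 6.21 with EHT, of which array 2 was below the floor. All 6 were under the 3 hypoxia DMSO values given above, and under the normoxia values too. Hes6 fell by 1.34 ± 0.13 with BFA (adjusted p = 4.24e-06, at least 1.82-fold) and by 1.04 ± 0.13 with EHT (2.06-fold, adjusted p = 1.09e-04). The difference between the compounds did not pass (-0.30 ± 0.13, adjusted p = 0.0963), although it did without EHT array 2 (-0.40, adjusted p = 0.0468) and when only transcript clusters above the floor on at least 3 arrays were fitted (adjusted p = 0.0425).

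Hey1 fell with BFA and passed no test with EHT. This repressor, which pairs with HES proteins, read 8.75, 8.61 and 8.61 on the normoxia arrays, 8.87, 8.89 and 8.95 on the hypoxia DMSO arrays, 7.04, 6.32 and 6.89 on the BFA arrays and 8.73, 8.76 and 8.69 on the EHT arrays (TC0300001616.mm.2). The BFA arrays were all lower than the other 9, and array 2 of them was below its floor. Hey1 fell by 2.15 ± 0.16 with BFA (4.44-fold, adjusted p = 2.98e-07). With EHT the difference was -0.18 ± 0.16 (95% interval -0.52 to 0.16, adjusted p = 0.423), although its 3 arrays all lay under the 3 DMSO arrays. Between the compounds Hey1 was 3.92-fold lower with BFA (-1.97 ± 0.16, adjusted p = 8.82e-07), and this held under all 21 alternatives.

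Hes5, the classical effector of Notch in neural progenitors, passed in no comparison. It read 6.95, 7.27 and 7.16 under normoxia, 7.27, 7.14 and 7.24 for hypoxia DMSO, 7.22, 6.85 and 7.19 for BFA and 6.94, 7.17 and 7.25 for EHT (TC0400002062.mm.2). All 4 groups overlapped. Its 95% intervals were -0.43 to 0.18 with BFA and -0.40 to 0.21 with EHT, and the sign of both differences turned after a further quantile normalization (0.24 and 0.14). Hes1, the other main Notch effector, lay close to the floor, at 5.80 to 5.94 on the DMSO arrays, 5.23 to 5.88 with BFA and 5.90 to 6.07 with EHT. It was below the floor on all BFA arrays and on 2 of 3 EHT arrays, so a larger fall could hardly have been read. Its differences of -0.32 ± 0.15 with BFA and 0.06 ± 0.15 with EHT did not pass (adjusted p = 0.0936 and 0.806), and without BFA array 3 the first did (-0.45, adjusted p = 0.0261).

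**Figure D2:**
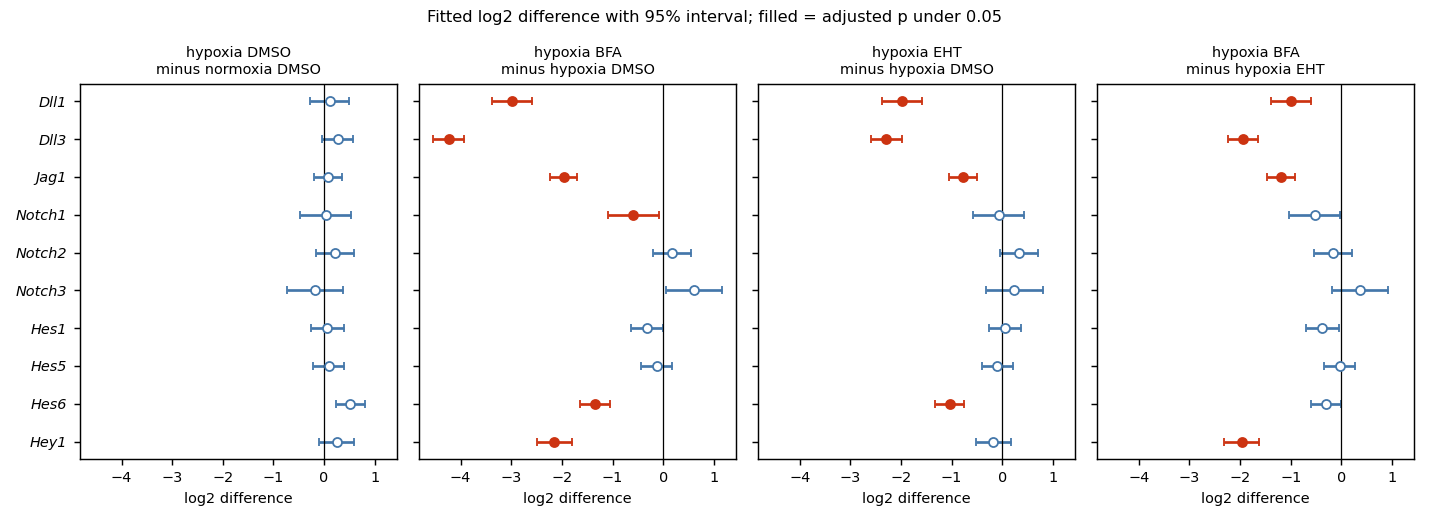
Fitted log2 differences of the 10 genes with 95% intervals (bars) in 4 comparisons, and filled points for an adjusted p under 0.05. Filled points stand at -4.23 for Dll3 and -2.98 for Dll1 with BFA, no gene is filled in hypoxia against normoxia, and Hey1 is filled with BFA and against EHT but open for EHT against DMSO.

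Set directly against each other, BFA gave lower signals than EHT for Dll3, Dll1, Jag1 and Hey1. That is 4 lower and 0 higher of 10, in a comparison in which 36.5% of all transcript clusters passed, 16.9% as higher and 19.6% as lower with BFA, and 55.5% of those above the floor on at least 3 arrays. The groups did not overlap for 6 of the 10 genes, against 42.2% of all transcript clusters. The median of the 10 genes was -0.45, beside 0.06 over all. Of these 4, Dll1 was below the floor in both groups.

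Against normoxia, 5 genes were lower in hypoxia with BFA, namely Dll3, Dll1 and Hes6, all below the floor on every BFA array (at least 7.76-fold, 1.19-fold and 1.27-fold lower), Hey1 (-1.90 ± 0.16) and Jag1 (-1.89 ± 0.13), while 47% of all transcript clusters passed, 23% as higher and 24% as lower, and 63.7% of those above the floor on at least 3 arrays. The groups did not overlap for 6 of the 10, against 53.6% of all. For hypoxia with EHT against normoxia 22.4% of all transcript clusters passed, 14.3% as lower and 8.1% as higher (1798 higher and 3167 lower, but 2211 and 2507 after a further quantile normalization), and 38.5% of those above the floor on at least 3 arrays. Of the genes, 4 were lower, namely Dll3 (-2.02 ± 0.14), Dll1 (below the floor on every EHT array, at least 1.66-fold), Jag1 (-0.70 ± 0.13) and Hes6 (-0.52 ± 0.13, adjusted p = 0.0138). Notch2 was higher there (0.56 ± 0.17, 1.47-fold, adjusted p = 0.0358) with no overlap between the groups, as was so for 5 of the 10 genes and 42% of all transcript clusters. That Notch2 call was lost without any 1 of the 3 normoxia arrays and without EHT array 1 or 3 (adjusted p between 0.0616 and 0.139). The Hes6 call was lost without normoxia array 2 or EHT array 2 or 3 and after a further quantile normalization (adjusted p between 0.0531 and 0.0725). Thus 5 genes in all passed for EHT against normoxia, and 3 did without normoxia array 2 or without EHT array 3.

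**Figure D3:**
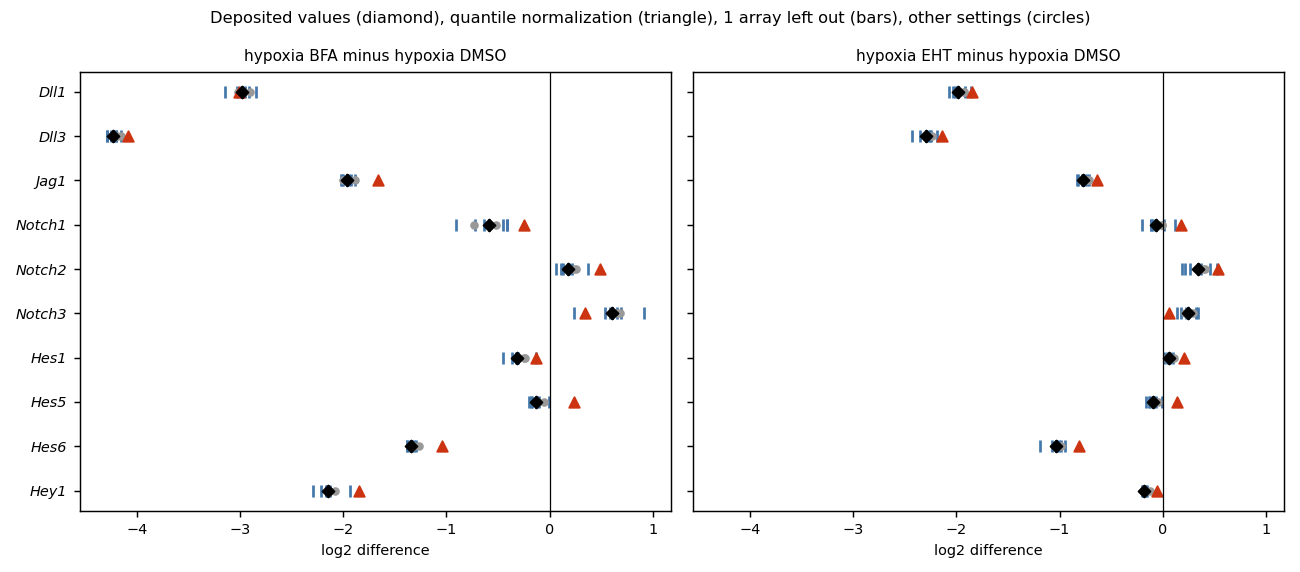
Log2 differences of the 10 genes for BFA (left) and EHT (right) against DMSO in hypoxia under every setting tried: deposited values (diamonds), a further quantile normalization (triangles), 1 array left out (bars) and other settings (circles). Dll3 stayed between -4.29 and -4.09 with BFA and between -2.43 and -2.14 with EHT, while Notch1 with BFA spread from -0.91 to -0.25.

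Around these 10 genes, 68 further genes of the pathway were considered in 6 lists by role, of which 65 were measured. Hypoxia alone raised 3 of the 65 and lowered 0, near the 2.67% of all transcript clusters that passed, or 4.83% of those above the floor on at least 3 arrays. They were Bhlhe40 (2.54 ± 0.12, 5.83-fold, adjusted p = 7.18e-08) and Bhlhe41 (at least 1.90-fold, adjusted p = 1.30e-05), repressors related to the HES family and known as hypoxia-responsive, and Dner, a noncanonical ligand (0.90 ± 0.14, adjusted p = 0.0039). BFA raised 8 and lowered 30 (median -0.37), and EHT raised 8 and lowered 27 (median -0.33). That is 38 and 35 of 65 that passed, against 50.7% and 30.5% of all transcript clusters, or 62.3% and 45.9% of those above the floor on at least 3 arrays. The counts of the single lists below stand against 26.1% of all transcript clusters higher and 24.6% lower with BFA, and 13% higher and 17.4% lower with EHT. Among those that passed, 6 with BFA and 4 with EHT were below the floor in both groups, and without EHT array 2 the EHT total was 22 in place of 35. After a further quantile normalization BFA raised 14 and lowered 23, and EHT raised 9 and lowered 18. Over all transcript clusters the medians were 0.11 and 0.06.

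Of 6 other ligands and receptors, BFA lowered 3 and raised 1 and EHT lowered 2 and raised 1. Dner fell with BFA (-1.76 ± 0.14, limma adjusted p = 6.80e-07, at least 1.10-fold) and with EHT (-0.81 ± 0.14, adjusted p = 0.0010, at least 1.54-fold). These bounds do not rank the compounds, since the floor of the BFA arrays was higher. Dll4 and Dlk1, also lower with BFA, were below the floor in both groups. Of 9 genes of receptor processing, BFA lowered 4 and raised 0, or lowered 2 and raised 3 after a further quantile normalization. The cleaving protease Adam10 fell by 0.96 ± 0.16 and Adam17 by 0.91 ± 0.15. EHT lowered 4 and raised 1 of them, with Adam10 down by 0.68 ± 0.16, Adam17 by 0.73 ± 0.15, and the γ-secretase subunit Psenen up by 0.71 ± 0.12.

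Among the genes of glycosylation and trafficking, Mib2 moved in opposite directions with the compounds. Of 13 genes of this list, BFA raised 2 and lowered 4, and EHT raised 0 and lowered 5. Mib2, a ubiquitin ligase of Notch ligands, had a mean of 6.24 ± 0.18 for hypoxia DMSO, 7.85 ± 0.08 for BFA and 5.54 ± 0.10 for EHT. It rose 3.05-fold with BFA (adjusted p = 3.36e-07), fell at least 1.17-fold with EHT (adjusted p = 9.43e-04), and differed at least 3.59-fold between them (adjusted p = 3.38e-08). Its relative Mib1, the main ligase of Notch ligands, fell with both (-0.73 ± 0.14 and -0.85 ± 0.14). Tmed2, a cargo receptor of the early secretory pathway, rose with BFA by 0.71 ± 0.12, and Poglut1, which adds O-glucose to Notch, fell with BFA by 1.15 ± 0.16. Poglut1 was also lower with EHT (-0.55 ± 0.16, limma adjusted p = 0.0231), a call that held under 17 of 21 alternatives.

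In the nuclear complex, 16 of 18 genes were measured, and BFA raised 2 and lowered 8 while EHT raised 2 and lowered 6. After a further quantile normalization BFA raised 4 and lowered 7, and EHT raised 2 and lowered 2. Corepressors of the TLE family, which HES proteins recruit, fell with BFA, Tle3 by 2.02 ± 0.16 and Tle4 by 1.40 ± 0.18, with 1 of 3 BFA arrays above the floor for each. The deacetylase Hdac1 fell by 1.25 ± 0.13 and the coactivator Maml2 fell at least 1.15-fold (-1.98 ± 0.23). With EHT, Maml2 fell at least 1.61-fold (-0.96 ± 0.23) and the RBPJ-binding corepressor Cir1 rose by 0.77 ± 0.12. The 2 bounds for Maml2 do not rank the compounds either, because the floor was higher with BFA. Between the compounds, Tle1, Tle3, Tle4 and Hdac1 were lower with BFA by 0.998 to 1.57 on the log2 scale.

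Of the 13 inhibitors and ubiquitin ligases, 9 fell and 0 rose with BFA and 10 fell and 0 rose with EHT. After a further quantile normalization these counts were 6 and 1 with BFA and 8 and 0 with EHT. Nrarp, a feedback inhibitor that is itself a Notch target, averaged 6.003 ± 0.23 with DMSO and was below the floor with BFA (4.20 ± 0.17) and with EHT (4.80 ± 0.40). It passed for both (adjusted p = 5.82e-06 and 4.38e-04), but no fold is given because the floor of the compound arrays was no lower than the DMSO signal. The kinase Aak1 fell by 0.77 ± 0.11 with BFA and 0.65 ± 0.11 with EHT, and Cdk8, a kinase that marks the freed Notch part for decay, fell by 0.93 ± 0.14 with EHT.

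The list of 8 other HES and HEY genes also counts Bhlhe40 and Bhlhe41, which are related to the HES family but not named as members. Of these 8, BFA lowered 2 and raised 3, and EHT lowered 0 and raised 4. For each compound, 2 of those raised were below the floor in both groups. Hey2, the closest relative of Hey1, fell with BFA (6.56 ± 0.08 to 4.60 ± 0.34, at least 1.05-fold, adjusted p = 3.46e-06). With EHT it averaged 6.27 ± 0.37 and did not pass (-0.29 ± 0.19, adjusted p = 0.279). Bhlhe41 rose by a further 2.15 ± 0.20 with EHT (4.43-fold, adjusted p = 8.21e-06) to 8.68 ± 0.19. It was below the floor with BFA, at least 4.56-fold under EHT (adjusted p = 5.97e-07).

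**Figure D4:**
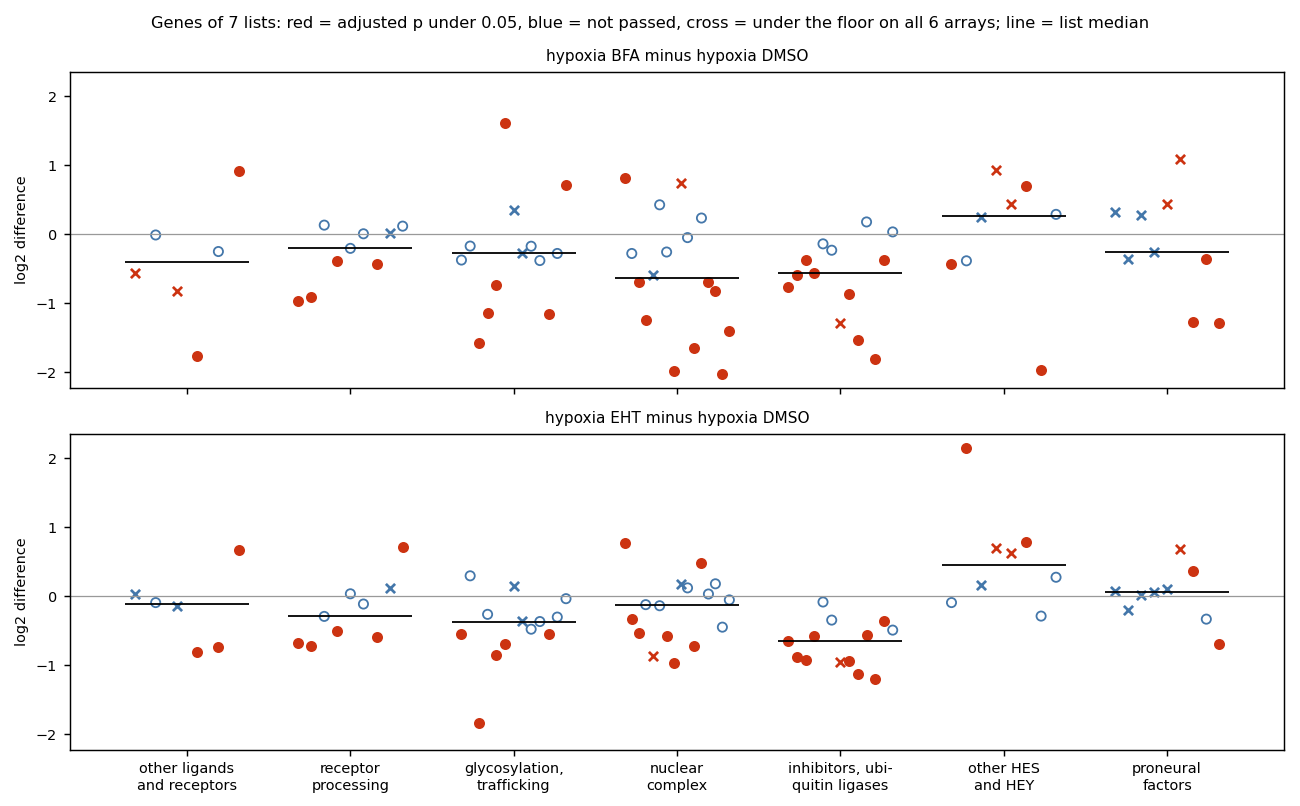
Log2 differences of the genes of 7 lists for BFA (top) and EHT (bottom) against DMSO in hypoxia, in red where the adjusted p was under 0.05, with crosses for genes below the floor on all 6 arrays and a line at each list's median. The inhibitors and ubiquitin ligases have 9 red points under 0 with BFA and 10 with EHT, and the highest red point with EHT is Bhlhe41 at 2.15.

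Genes whose course over the 12 arrays was most like that of Dll3, Dll1 and Hey1 were sought among 10023 genes above the floor on at least 3 arrays, by the root mean square distance between centred log2 values. This is a description, with no test. Nearest to Dll3 were Gpr17 (0.099), Lypd6 (0.262) and Mgll (0.326). Gpr17, a receptor of oligodendrocyte progenitors that are committing to differentiate, had group means of 10.20 under normoxia, 10.44 for hypoxia DMSO, 6.39 for BFA and 8.23 for EHT. Tmem100 (0.192), Lrrn1 (0.209) and Tmem88b (0.212) were nearest to Dll1, and Plppr3 (0.147), Zfp423 (0.171) and Cdca7l (0.194) to Hey1. The neighbours of Hey1 had averages with EHT close to those with DMSO, for example 8.25 and 8.37 for Cdca7l, and a lower average with BFA (6.05). Among the neighbours named, only Plppr3 (6.90) had a BFA mean above the mean floor of 6.49. Those of Gpr17 and Lypd6 (6.48) lay just under it, although Gpr17 was above the array's own floor on 2 BFA arrays. With EHT, Tmem100 (5.83) and Tmem88b (4.94) were under the mean floor of 6.01. The filter could be passed on DMSO arrays alone, so these distances partly compare values below the floor. Of the 7 measured markers of oligodendrocyte progenitors and glioma cells, all 7 fell with EHT and 6 with BFA, the exception being Nes (-0.05 ± 0.18 with BFA). Examples are Olig2 with differences of -3.34 ± 0.11 with BFA and -2.36 ± 0.11 with EHT, and Sox10 with -2.60 ± 0.12 and -0.50 ± 0.12.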

How the data were processed

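RNA of 4 groups was hybridized to 12 Clarion S mouse arrays, and the deposited log2 values were made by the authors with RMA in Affymetrix Expression Console, per the submitters' processing notes (versions and build are not given in the sources used here). RMA includes quantile normalization, after which array medians are alike, so differences are relative to the bulk of probes. The 28846 rows held 6640 controls, which were left out. The other 22206 were fitted with limma 3.58.1 in R 4.3.3 (lmFit and eBayes, all 12 arrays, 4 groups, 8 residual and 4.87 prior degrees of freedom), with Benjamini-Hochberg adjustment over all of them and a threshold of 0.05. Array numbers are those of the labels, and the number of arrays limits the precision. A symbol from the platform annotation was paired with 19572 rows, several with 0 and none with 2634; of 19505 genes, 55 had several rows and were represented by the brightest. The floor of an array was the 95th percentile of its 5222 negative control probes. Where all 3 arrays of a group were below it, a fold is given as "at least". It sets the brighter group's mean against the mean of, per array of the dimmer group, the higher of the floor and the gene's signal. Deviations of same-numbered arrays from their group means correlated between -0.18 and 0.17, with 1 of 18 pairs over 0.1, so numbers were not taken as pairs. Replicates correlated at 0.979 to 0.995 and shared at most 1 identical value. The fit was tested on simulated data. Alternatives were a further quantile normalization, median subtraction, 2 filters on dim rows, trended and robust variance, array weights, only the 6 arrays compared, the replicate block, the mean of a gene's rows (which leaves the 10 genes' own values as they are, since each has 1 row), and each array left out. Named were the 10 genes, up to 4 genes a list and comparison with the smallest adjusted p that passed and lay above the floor on every array of at least 1 group (or genes below the floor), and the 3 nearest genes to each of the 3 with the largest range of group means. Genes and lists were chosen with earlier results of these data known.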

Additional observations from a re-analysis of the deposited data

How the results depend on the processing

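The calls for Dll1, Dll3, Jag1 and Hes6 with either compound against DMSO, and for Hey1 with BFA, held under all 21 alternatives. For hypoxia against normoxia, 0 of the 10 genes passed, but 1 (Hes6) did without the dimmest 25% of transcript clusters, with those above the floor on at least 3 arrays, with trended and robust variance, with array weights and with only the 6 arrays compared, and 0 to 1 with an array left out. In that comparison the pathway genes called rose from 3 to 5 with trended variance, 9 with array weights and 5 with 6 arrays. All transcript clusters called there went from 593 to 1247 with the floor filter, 1221 with trended variance, 2258 with array weights and 1234 with 6 arrays, and lay between 254 and 898 with an array left out. For BFA against DMSO the floor filter gave 7423 in place of 11269, which follows from fewer transcript clusters tested. The other causes were not tested. For EHT against normoxia, 3 to 5 of the 10 genes and 15 to 27 pathway genes passed with an array left out (5 and 23 with all arrays, the lowest without normoxia array 2 or EHT array 3, and without normoxia array 1). For EHT against DMSO, 22 to 38 pathway genes did (35 with all arrays, the lowest without EHT array 2). With the replicate block, which the numbers do not justify as a pairing, 0, 6 and 4 of the 10 genes passed for hypoxia, BFA and EHT, and 442, 10938 and 6349 transcript clusters, against 593, 11269 and 6767 without it. Over the 10 genes and 6 comparisons, no called difference changed its sign. Limits are the 3 arrays a group, the shift of controls that came with both compounds, and the higher floor with BFA and EHT. Under that floor Dll1, Hes6, Hes1 and Dll3 were partly or wholly lost, as were Notch1, Notch2 and Hey1 on some BFA arrays.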

Other observations

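Proneural genes and their E-protein partners, whose proteins are known to bind E-box motifs, were described as a further list. Of its 11 genes 9 were measured, and 6 of these, among them Neurog2 and Atoh1, were below the floor on all 12 arrays. The 3 E proteins were well above it. Tcf4 had a mean of 11.56 ± 0.06 for hypoxia DMSO (SD, n = 3), 10.28 ± 0.13 for BFA and 10.86 ± 0.19 for EHT, and fell with both compounds (-1.28 ± 0.12 and -0.70 ± 0.12 with SE, limma adjusted p = 3.36e-06 and 0.0011). Tcf12 averaged 10.83 ± 0.11 with DMSO, 9.56 ± 0.18 with BFA and 11.20 ± 0.01 with EHT. It fell with BFA (-1.27 ± 0.12, adjusted p = 3.12e-06), was higher with EHT (0.37 ± 0.12, adjusted p = 0.0364), and differed between the compounds (-1.64 ± 0.12, adjusted p = 4.62e-07). The call of Tcf12 for EHT against DMSO was lost under 7 of 21 alternatives, whereas its other calls named here and those of Tcf4 held under all 21. Tcf3 was lower with BFA (-0.36 ± 0.13, adjusted p = 0.0335), a call also lost under 7 of 21, and did not pass with EHT (-0.33 ± 0.13, adjusted p = 0.0694).

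Tubb3 and Map2, markers of neurons that other neural cells also express, are given side by side. Map2 had a mean of 9.36 ± 0.12 for hypoxia DMSO, 7.44 ± 0.10 for BFA and 8.80 ± 0.12 for EHT, while Tubb3 averaged 7.16 ± 0.06, 7.24 ± 0.10 and 7.48 ± 0.18. Syt1, the other neuronal marker above the floor on all DMSO arrays, averaged 6.61 ± 0.08, 5.43 ± 0.53 and 6.08 ± 0.25 in the same order. It was below the floor on every BFA array and above it on 2 EHT arrays. Map2 fell with BFA (-1.92 ± 0.12 with SE, limma adjusted p = 5.25e-08) and with EHT (-0.57 ± 0.12, adjusted p = 0.0028), and Tubb3 did not pass with either (0.08 ± 0.12 and 0.31 ± 0.12, adjusted p = 0.615 and 0.0613).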
